A study of Mus musculus with 8 samples.

Results

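Adrenomedullin is a secreted vasodilator peptide, and the genes described here encode it, its relative and the subunits of their receptors. Rows of the deposited table were taken by gene symbol for Adm, Adm2, Calcrl, Ramp1, Ramp2 and Ramp3, which are 6 of the 22518 genes it lists. RNA of whole hearts from C57BL/6 mice at postnatal day 12 was compared between 4 wild type libraries and 4 libraries of littermates with an endothelial knockout of PHD2 and PHD3. Both are oxygen-dependent prolyl hydroxylases that mark hypoxia-inducible factor (HIF) alpha subunits for destruction. The alleles, the Cre driver, the sex and the number of animals behind a library were not given in the sources used here. P-values measure the spread between these libraries, which may be technical in part.

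Adrenomedullin acts on a class B G protein-coupled receptor, CLR, the product of Calcrl. CLR reaches the cell surface only with a single-pass partner, a receptor activity modifying protein (RAMP), and the partner sets which peptide it binds. With RAMP2 or RAMP3 it is an adrenomedullin receptor, and with RAMP1 it is the receptor of calcitonin gene-related peptide (CGRP). The receptors couple mainly to Gs and cyclic AMP, and in mice the peptide, CLR and RAMP2 are needed for normal development of blood and lymphatic vessels. Adm is a well-known target of HIF.

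Levels are quantile-normalised FPKM (sequenced fragments scaled by transcript length and library size), given as mean ± SD with n = 4 per group. FPKM is scaled by transcript length, so levels of different genes can be set side by side. Log2 changes are differences of mean log2(FPKM + 1), knockout minus wild type, ± SE, from limma fitted to 11390 genes whose mean reached 1 FPKM. A gene was called at an adjusted p under 0.05 (Benjamini-Hochberg over those genes). Across them 1385 genes (12.2%) were called, 701 raised (6.15%) and 684 lowered (6.01%), and in 20.7% the 4 values of one group lay apart from all 4 of the other (10.3% with knockout higher and 10.4% with wild type higher). Leaving out wild type replicate 2, 3 or 4 gave totals of 575, 840 and 744 called genes, and leaving out knockout replicate 2 or 3 gave 759 and 893.

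The targeted genes did not separate the groups. Egln1 (PHD2) ranged from 45.2 to 57.9 FPKM in wild type and from 52.6 to 63.5 FPKM in knockout hearts (limma adjusted p = 0.442). Egln3 (PHD3) ranged from 17.96 to 38.7 and from 32.6 to 52.8 FPKM (limma adjusted p = 0.132, but 0.0222 with Ddx3y, a Y chromosome gene, as a covariate). Gene-level values of a whole heart need not show a deletion in endothelial cells, so the genotype is taken from the labels. Wild type replicate 4 stood apart, as the 10 lung epithelial markers summed to 1245 FPKM there and to 0.740 to 1.44 FPKM in the other 7 libraries. The airway gene Scgb1a1 made up 1030.4 FPKM of that sum, while the alveolar gene Sftpc was listed at 0 in the same library. The library number of knockout replicate 4 is also apart from the rest. All 20 blood endothelial markers were detected above the filter, and their sum ranged from 832 to 949 FPKM in wild type and from 888 to 929 FPKM in knockout hearts.

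Of the 6 genes, 3 rose, 2 fell and 1, Adm2, was too low to be tested, beside 6.15% raised and 6.01% lowered among all tested genes. The ligand Adm, the shared receptor subunit Calcrl and the partner Ramp3 were higher in the knockout hearts, by 2.86-fold, 1.84-fold and 2.82-fold in mean FPKM. The partners Ramp1 and Ramp2 were lower, by 2.72-fold and 1.31-fold. All of the 5 tested genes had a mean above 1 FPKM in both groups, and in none did the knockout and wild type values overlap. Among all tested genes 20.7% showed no overlap. Without wild type replicate 4 the same 5 were called.

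**Figure D1:**
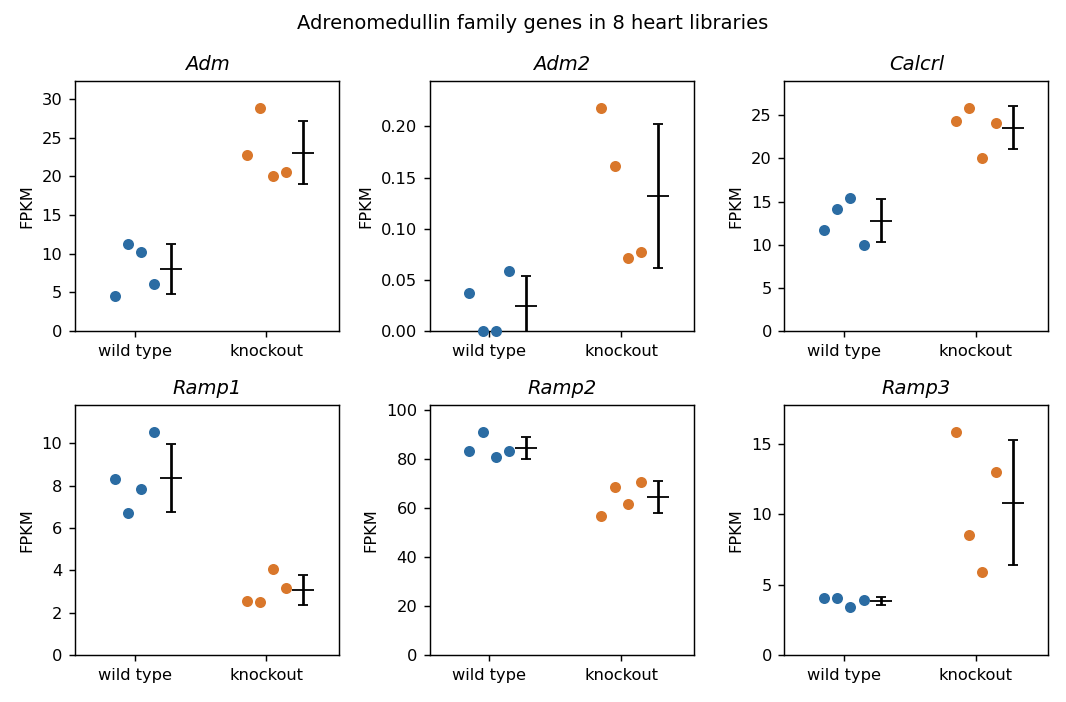
FPKM of the 6 genes on linear axes that start at 0 and differ between panels; each point is 1 heart library (blue wild type, orange knockout), and the black mark and bar are the mean and SD of 4 libraries, cut at 0 for Adm2. Adm, Calcrl and Ramp3 lie higher and Ramp1 and Ramp2 lower in every knockout library, while Adm2 stays at or under 0.218 FPKM.

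Adm encodes the precursor of adrenomedullin. The gene lies on chromosome 7 from 110627661 to 110629820 on the plus strand (GRCm38, which is mm10; GENCODE M21) and has 4 exons. The wild type hearts, replicates 1 to 4, gave 4.60, 11.3, 10.2 and 6.12 FPKM of Adm, and the knockout hearts in the same order 22.8, 28.8, 20.1 and 20.6 FPKM. The lowest knockout library stood well above the highest wild type library, and the wild type libraries themselves spread more than 2-fold. The mean rose from 8.05 ± 3.20 to 23.1 ± 4.03 FPKM, a log2 change of 1.47 ± 0.24 (95% interval 0.93 to 2.01; limma adjusted p = 0.00628). Only 0.571% of the tested genes had a larger absolute change. Without wild type replicate 4 the change was 1.38 (limma adjusted p = 0.0206). Knockout replicate 2, the library with the most Adm, also had the highest summed level of 7 atrial markers. The sum was 11906 FPKM there, 8759 FPKM of it Nppa, against 2531 to 6505 FPKM elsewhere. Sln and Stard10 were below their wild type means there and the other markers above. Nppa was higher in every knockout library, at 2195 to 8759 FPKM against 1246 to 1786 FPKM in wild type (limma adjusted p = 0.0580). Stard10 was lower in every knockout library, at 6.94 to 24.4 FPKM against 27.0 to 34.4 FPKM (limma adjusted p = 0.0715). Neither was called. Without knockout replicate 2 the change of Adm was 1.36 (limma adjusted p = 0.0217). The atrial marker Bmp10 was at 49.6 to 141 FPKM in replicates 2 and 3 of both groups and far lower in replicates 1 and 4. Wild type replicates 2 and 3 had the most Adm of their group, but knockout replicate 3 had the least of its own. Wild type replicates 2 and 3 and knockout replicate 1 were also those of their groups with low Ddx3y. With Ddx3y as a covariate the change of Adm was 1.59 (limma adjusted p = 0.00371). The parts of atrial tissue and of sex in the spread of Adm were not tested. GENCODE places an antisense gene, Gm28863, over the whole of Adm. Strandedness was not given, so whether its reads entered the values of Adm is not known.

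The DNA before the start of the 3 raised genes, Adm, Ramp3 and Calcrl, and of the lowered gene Ramp1 is shown because the core letters of the hypoxia response element can be looked for there. HIF binds the core ACGTG or GCGTG, and both were searched on both strands of the 250 bases before each RefSeq start site (GRCm38.p6). Capitals mark every match, read on the gene's strand, where CACGC is GCGTG on the opposite strand.
Adm, chr7:110627407-110627656, plus strand: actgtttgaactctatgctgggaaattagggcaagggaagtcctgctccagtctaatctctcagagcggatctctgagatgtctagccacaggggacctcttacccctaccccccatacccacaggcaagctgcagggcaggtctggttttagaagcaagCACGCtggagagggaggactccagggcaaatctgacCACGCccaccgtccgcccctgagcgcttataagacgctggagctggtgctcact
Ramp3, chr11:6658283-6658520, plus strand: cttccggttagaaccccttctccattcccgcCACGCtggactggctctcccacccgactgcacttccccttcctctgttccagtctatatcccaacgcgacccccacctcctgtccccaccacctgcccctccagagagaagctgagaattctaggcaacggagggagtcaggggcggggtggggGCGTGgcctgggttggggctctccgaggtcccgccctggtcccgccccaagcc
Calcrl, chr2:84425412-84425516, minus strand: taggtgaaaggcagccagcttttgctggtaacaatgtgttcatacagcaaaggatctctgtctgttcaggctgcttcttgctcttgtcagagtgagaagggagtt
Ramp1, chr1:91179572-91179821, plus strand: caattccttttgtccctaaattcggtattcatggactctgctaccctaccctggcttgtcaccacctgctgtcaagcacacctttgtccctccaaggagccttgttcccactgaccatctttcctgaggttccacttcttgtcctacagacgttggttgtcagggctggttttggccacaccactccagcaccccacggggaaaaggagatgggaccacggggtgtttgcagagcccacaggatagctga

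Adm held 2 matches, which begin 90 and 54 bases before the RefSeq start, and Ramp3 held 2, which begin 219 and 65 bases before it. The windows of Calcrl, which also rose, of Ramp1 and of Adm2 held none, which says only that these letters are not in this stretch. Among 32851 RefSeq promoter windows of this length, 38.6% held at least 1 match and 16.7% held 2 or more. The window of Ramp3 was the richest of the 5 in CpG, with 13 CpG dinucleotides against 7 in Adm, 4 in Adm2 and Ramp1 and 3 in Calcrl. A match is a run of letters and not a measured binding site. The bases nearest the RefSeq start of Ramp3 and Calcrl were searched but are not printed, because GENCODE places them inside the gene.

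Adm2 encodes adrenomedullin 2, also called intermedin, which binds all 3 of the CLR and RAMP pairs. The gene lies on chromosome 15 from 89322720 to 89324731 on the plus strand. Its listed FPKM were 0.0377, 0, 0 and 0.0591 for wild type replicates 1 to 4, against 0.218, 0.162, 0.0713 and 0.0770 for the knockout hearts. The groups did not overlap, but every value was far under the 1 FPKM filter, so no fold is given. Fitted without a filter on low values, over the genes above 0 in at least 1 library, its log2 change was 0.14 and was not called (limma adjusted p = 0.0974; 6.03% of genes were called in that fit).

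Calcrl encodes CLR, which both adrenomedullin and CGRP need for signalling. It lies on chromosome 2 from 84330626 to 84425411 on the minus strand, and its coding transcripts have 13 to 16 exons. The wild type hearts, replicates 1 to 4, gave 11.7, 14.1, 15.5 and 10.02 FPKM of Calcrl, and the knockout hearts in the same order 24.3, 25.8, 20.0 and 24.1 FPKM. The groups did not overlap, with wild type replicate 4 and knockout replicate 3 the lowest of their groups. The mean rose from 12.8 ± 2.43 to 23.5 ± 2.49 FPKM, a log2 change of 0.84 ± 0.13 (95% interval 0.54 to 1.14; limma adjusted p = 0.00515). Without wild type replicate 4 the change was 0.74 (limma adjusted p = 0.0126).

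Because Calcrl and Ramp2 are known for strong expression in endothelium, the level of endothelial transcripts was set beside them. Of 20 blood endothelial markers 3 were raised, 5 lowered and 12 not called, with a median log2 change of -0.17 against -0.01 over all tested genes. The share called was 40%, against 12.2% of all tested genes. The endothelial cadherin Cdh5 was at 94.9 ± 1.60 in wild type against 80.7 ± 9.40 FPKM in knockout hearts (limma adjusted p = 0.102), and Pecam1 was at 94.5 ± 5.001 and 111 ± 6.94 FPKM (limma adjusted p = 0.0665). Calcrl per Cdh5 was 0.120, 0.150, 0.165 and 0.105 in the wild type and 0.262, 0.359, 0.241 and 0.322 in the knockout libraries, again without overlap. Ramp2 per Cdh5 overlapped, at 0.894 ± 0.0533 in wild type and 0.815 ± 0.166 in knockout libraries. Ramp2 per Pecam1, a ratio added after the values were seen, did not overlap, at 0.900 ± 0.0757 and 0.581 ± 0.0695. Against the sum of all 20 markers, also added later, Ramp2 did not overlap either (9.56 ± 0.549 and 7.19 ± 0.828 FPKM per 100 FPKM of markers). Whether Ramp2 overlapped between the groups thus depended on the endothelial gene it was set against, while Calcrl was higher in every knockout library against Cdh5, Pecam1 and the sum. In RNA of a whole organ, fewer cells of a type and less RNA per cell cannot be told apart.

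Ramp2 encodes the partner that makes CLR the main vascular adrenomedullin receptor. The gene starts at base 101246028 of chromosome 11 and ends at 101259546 on the plus strand. The wild type hearts, replicates 1 to 4, gave 83.5, 91.3, 81.0 and 83.3 FPKM of Ramp2, and the knockout hearts in the same order 57.0, 68.8, 61.7 and 70.7 FPKM. All wild type libraries were above all knockout libraries, and wild type replicate 3, the lowest of its group, stood above knockout replicate 4, the highest of its own. The mean fell from 84.8 ± 4.50 to 64.6 ± 6.37 FPKM, a log2 change of -0.39 ± 0.09 (95% interval -0.58 to -0.20; limma adjusted p = 0.0195). This was the smallest of the 5 changes, and 15.5% of tested genes had a larger one. The call was lost without wild type replicate 2 (limma adjusted p = 0.0692) or knockout replicate 3 (0.0535) and at a minimum change of 1.5-fold. Without wild type replicate 4 it was kept (-0.40, limma adjusted p = 0.0469). GENCODE extends Ramp2 on the same strand over 5840 bases shared with Vps25, a subunit of the ESCRT-II complex, so part of its exons may share reads. Vps25, named here because of this overlap, was at 69.9 ± 4.29 in wild type against 61.9 ± 10.2 FPKM in knockout hearts (limma adjusted p = 0.316).

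Ramp3 encodes the partner of the other adrenomedullin receptor. It lies on chromosome 11 from 6658521 to 6677475 on the plus strand and has 3 exons, and a pseudogene, Gm11978, overlaps 1713 bases of it on the minus strand. The wild type hearts, replicates 1 to 4, gave 4.06, 4.02, 3.44 and 3.88 FPKM of Ramp3, and the knockout hearts in the same order 15.9, 8.54, 5.92 and 13.0 FPKM. The wild type libraries were nearly alike, while the knockout libraries were far apart, with replicate 3 nearest to the wild type range and replicate 1 farthest from it. Knockout replicates 2 and 3, which had less Ramp3 than knockout replicates 1 and 4, were those of their group with high Bmp10. Knockout replicate 1, with the most Ramp3, was the library of its group with low Ddx3y. With Ddx3y as a covariate the change of Ramp3 was 1.30 (limma adjusted p = 0.0131). The parts of atrial tissue and of sex in the spread of Ramp3 were not tested. The mean rose from 3.85 ± 0.285 to 10.8 ± 4.47 FPKM, a log2 change of 1.21 ± 0.24 (95% interval 0.67 to 1.74; limma adjusted p = 0.0135). The change was 1.21 without wild type replicate 4 (limma adjusted p = 0.0375) and 1.10 without both replicates 4, where the call was lost (limma adjusted p = 0.0570).

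Ramp1 encodes the partner that turns CLR into the CGRP receptor. It lies on chromosome 1 from 91179822 to 91225196 on the plus strand, and its coding transcripts have 3 or 4 exons. The wild type hearts, replicates 1 to 4, gave 8.30, 6.70, 7.83 and 10.6 FPKM of Ramp1, and the knockout hearts in the same order 2.54, 2.51, 4.05 and 3.16 FPKM. The highest knockout library was below the lowest wild type library, and wild type replicate 4 was the highest of all. The mean fell from 8.35 ± 1.62 to 3.06 ± 0.722 FPKM, a log2 change of -1.20 ± 0.15 (95% interval -1.54 to -0.86; limma adjusted p = 0.00191). Without wild type replicate 4 the log2 change was -1.10 (limma adjusted p = 0.00596). Fibroblast transcripts also separated the groups, as 9 fibroblast markers summed to 1356 to 1573 FPKM in wild type and 989 to 1146 FPKM in knockout hearts, with 3 lowered, 0 raised and 6 not called. The sum of 10 smooth muscle and pericyte markers overlapped, at 718 to 1168 FPKM in wild type and 708 to 993 FPKM in knockout hearts, with 2 raised and 0 lowered. Those called made up 33.3% of the fibroblast and 20% of the smooth muscle and pericyte markers, against 12.2% of all tested genes. The part of these cells in the change of Ramp1 was not tested.

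**Figure D2:**
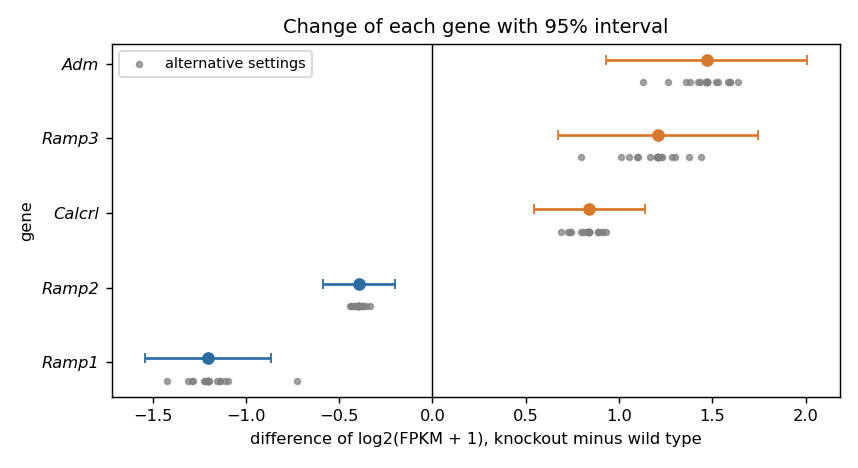
Difference of mean log2(FPKM + 1), knockout minus wild type, for the 5 tested genes; large points with bars are the estimate and its 95% interval, and small grey points are the 20 alternative settings or omissions. Adm, Ramp3 and Calcrl lie right of 0 and Ramp2 and Ramp1 left of it under every setting, with Adm at 1.47 and Ramp1 at -1.20.

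The order of the genes differed between the groups. In wild type hearts Ramp2 was highest (81.0 to 91.3 FPKM), followed by Calcrl (10.02 to 15.5), Ramp1 (6.70 to 10.6), Adm (4.60 to 11.3) and Ramp3 (3.44 to 4.06). Calcrl overlapped with Ramp1 and with Adm in that order, and Ramp1 overlapped with Adm, while Ramp2 stood above and Ramp3 below the others. In knockout hearts Ramp2 was again highest (57.0 to 70.7 FPKM), Calcrl (20.0 to 25.8) and Adm (20.1 to 28.8) overlapped, and Ramp3 (5.92 to 15.9) came before Ramp1 (2.51 to 4.05). Ramp1 was thus above Ramp3 in every wild type library and below it in every knockout library.

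The opposite changes left less RNA of Ramp1 and Ramp2 for a given level of Calcrl in the knockout libraries. Ramp2 per Calcrl, as a ratio of FPKM, was 7.16, 6.48, 5.24 and 8.32 in wild type and 2.35, 2.66, 3.09 and 2.94 in knockout replicates 1 to 4. Ramp1 per Calcrl was 0.712, 0.475, 0.507 and 1.05 in wild type and 0.104, 0.0970, 0.202 and 0.131 in knockout libraries. Neither ratio overlapped between the groups. Ramp3 per Calcrl did overlap, at 0.311 ± 0.0723 in wild type and 0.455 ± 0.171 in knockout libraries.

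The summed FPKM of the 3 Ramp genes was lower in the knockout libraries, at 78.5 ± 6.53 against 97.0 ± 4.06 in wild type, and most of it was Ramp2 in each library. Ramp2 made up 87.4 ± 1.76% of the sum in wild type and 82.3 ± 5.03% in knockout libraries. Ramp3 made up 4.23, 3.94, 3.72 and 3.97% in wild type and 21.1, 10.7, 8.25 and 14.98% in knockout replicates 1 to 4. Ramp1 made up 8.66, 6.56, 8.49 and 10.8% in wild type and 3.37, 3.14, 5.65 and 3.64% in knockout replicates 1 to 4. Shares of Ramp1 and Ramp3 did not overlap between the groups, and no test was run on these ratios and shares.

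**Figure D3:**
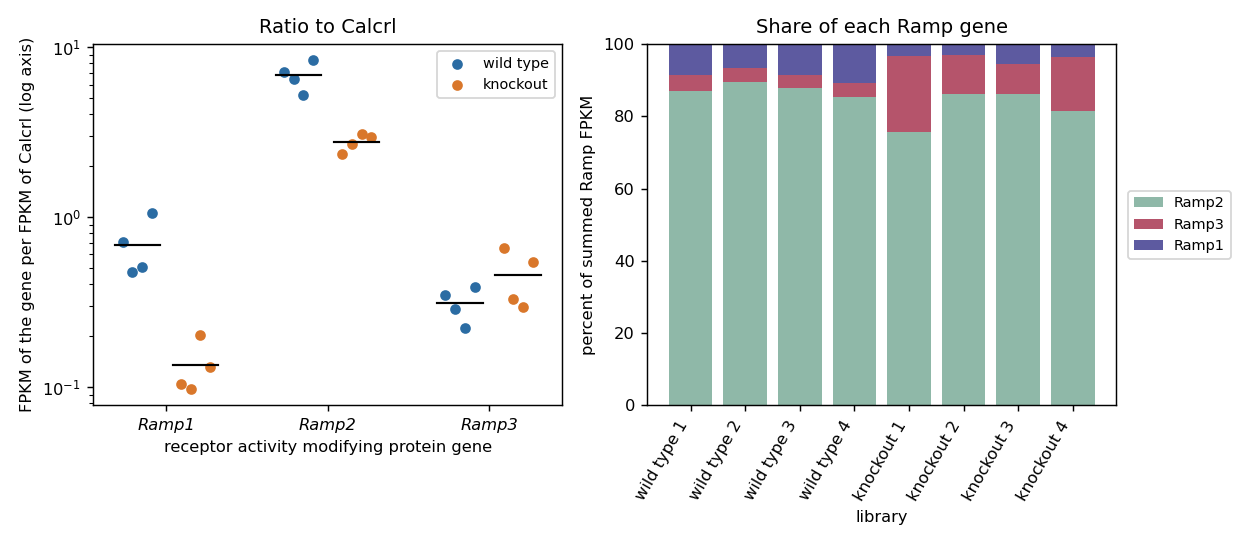
Left, FPKM of each Ramp gene per FPKM of Calcrl on a log axis, with 1 point per library and a black line at the mean of 4; right, percent of the summed Ramp1, Ramp2 and Ramp3 FPKM in each library. Ramp1 and Ramp2 per Calcrl are lower in every knockout library, and the share of Ramp3 grows from about 4% in wild type to between 8.25 and 21.1% in knockout libraries.

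Deviations of each library from its own group mean were set side by side to see which of the genes varied together within groups. Over the 8 libraries the log2 values of Adm and Calcrl deviated together (Pearson r = 0.77), and those of Calcrl and Ramp1 in opposite directions (r = -0.84). Without wild type replicate 4, which had the lowest Calcrl and the highest Ramp1 of its group, r was 0.79 and -0.75. Ramp2 and Ramp3 showed little relation (r = -0.10), which became 0.55 without knockout replicate 1. In both omissions the deviations were still those from the group means that include the omitted library. These values come from few libraries that share a normalisation and are given as a description.

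The remaining calcitonin family genes were low. Calca and Calcb, which encode the CGRP peptides, had means of 0.115 and 0.250 FPKM in wild type and 0.121 and 0.339 FPKM in knockout hearts. The calcitonin receptor gene Calcr was at most 0.00788 FPKM in group mean, and Iapp, the amylin gene, was listed at 0 in every library. None reached the filter. Of 8 other receptor genes reported to interact with RAMPs, only Pth1r passed the filter (4.23 ± 0.377 FPKM in wild type, 3.64 ± 0.781 in knockout; limma adjusted p = 0.357).

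Genes that process, bind or clear the peptide were not called, with 5 of 6 tested and a median log2 change of 0.12. Pam, the enzyme that amidates adrenomedullin and so makes it active, was abundant, at 294 ± 45.1 in wild type against 453 ± 125 FPKM in knockout hearts (log2 change 0.59 ± 0.21, limma adjusted p = 0.0928). Without knockout replicate 1 a single gene of this list was called as raised. Cxcr7, the older symbol of the scavenger receptor gene Ackr3, was at 21.6 ± 1.75 and 18.9 ± 3.97 FPKM (limma adjusted p = 0.340). Ide, which encodes insulin-degrading enzyme, was at 19.8 ± 2.32 and 22.1 ± 2.32 FPKM (limma adjusted p = 0.377). The neprilysin gene Mme, whose product degrades the peptide, was at 1.19 ± 0.292 and 0.502 ± 0.137 FPKM, with no overlap and a mean under the filter.

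Among genes of Gs, cyclic AMP and its effectors, 5 of 27 tested rows were raised, 4 lowered and 18 not called, with a median log2 change of 0.13. The share called was 33.3%, against 12.2% of all tested genes. The phosphodiesterase gene Pde4b, which breaks down cyclic AMP, rose from 15.5 ± 1.69 to 28.5 ± 2.28 FPKM (log2 change 0.84 ± 0.10, limma adjusted p = 0.00123). Its paralog Pde4c fell from 1.78 ± 0.285 to 0.743 ± 0.149 FPKM (log2 change -0.67, limma adjusted p = 0.00539). Prkar1a, a regulatory subunit of protein kinase A, rose from 129 ± 13.8 to 196 ± 18.2 FPKM, and the kinase anchor Akap12 rose from 12.7 ± 0.734 to 21.7 ± 4.55 FPKM. Rapgef3, which encodes the cyclic AMP sensor Epac1, fell from 13.1 ± 1.42 to 8.73 ± 1.28 FPKM (limma adjusted p = 0.0154, but 0.0562 without wild type replicate 2).

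Other calls of this list were lost when single libraries were left out. Prkar2a rose from 11.4 ± 2.81 to 19.0 ± 3.68 FPKM (limma adjusted p = 0.0382) and lost its call in 6 of the 8 omissions, being kept without wild type replicate 1 or knockout replicate 1 (largest adjusted p 0.107, when wild type replicate 2 was omitted). Crem fell from 15.9 ± 1.22 to 10.6 ± 3.02 FPKM (limma adjusted p = 0.0388) and lost it in 7 of 8, all but knockout replicate 1 (up to 0.0990 without knockout replicate 2). Pde4d stands in the table under 2 identifiers that moved in opposite directions. ENSMUSG00000074661 fell from 10.6 ± 1.06 to 6.85 ± 0.663 FPKM (limma adjusted p = 0.00628), and ENSMUSG00000021699 rose from 4.12 ± 1.10 to 7.48 ± 2.10 FPKM (limma adjusted p = 0.0481), so the change of Pde4d is uncertain. The rise was called only without replicate 1 of either group, and not in the other 6 of 8 omissions (up to 0.137 without wild type replicate 2). With Ddx3y as a covariate the calls of Prkar2a (limma adjusted p = 0.0678), Crem (0.0573) and ENSMUSG00000021699 (0.0700) were lost as well. The number raised was 3 without any 1 of wild type replicates 2 to 4 or knockout replicates 2 to 4, and the number lowered was 2 without wild type replicate 2.

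The stimulatory G protein gene Gnas was at 591 ± 9.70 in wild type against 510 ± 42.0 FPKM in knockout hearts, with no overlap, and was not called (limma adjusted p = 0.0834). Of 6 genes of receptor desensitisation, 1 was raised and 0 lowered (16.7% called, near the 12.2% of all tested genes). Arrb1, which encodes beta-arrestin 1, rose from 6.34 ± 0.847 to 10.003 ± 0.999 FPKM (log2 change 0.59 ± 0.10, limma adjusted p = 0.00812). Grk5 and Adrbk2, the older symbol of Grk3, were not called, at log2 changes of 0.36 (limma adjusted p = 0.0600) and 0.51 (0.0657). The number raised was 2 without wild type replicate 3 and 3 without knockout replicate 1.

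Adm was also placed among other known HIF targets. Of 29 such genes, without Adm, 27 were tested, of which 16 were raised, 0 lowered and 11 not called, and the median log2 change was 0.60. The share called was 59.3%, against 12.2% of all tested genes. Adm, at 1.47, ranked below Slc16a3 (2.77) and Slc2a1 (2.33), the transporters of lactate and glucose. The glycolytic regulator Pfkfb3 (1.22), the oxidase Ero1l (1.11) and the lipid droplet gene Hilpda (1.11) lay below Adm. The mitophagy receptor Bnip3 rose by 0.97, the pyruvate dehydrogenase kinase Pdk1 by 0.89 and Ndrg1 by 0.83 on the log2 scale. The glycolytic enzymes Eno1, Pgk1 and Ldha rose by 0.74, 0.69 and 0.60. Limma adjusted p of these 11 raised genes ran from 0.000128 (Slc2a1) to 0.00775 (Ldha).

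A further 4 raised targets had larger p-values, and each lost its call when single libraries were left out. Vldlr, a lipoprotein receptor, rose by 0.73 (limma adjusted p = 0.0218) and was not called without wild type replicate 2, wild type replicate 4 or knockout replicate 3. Stc2 rose by 0.53 (limma adjusted p = 0.0283) and was not called without any 1 of wild type replicates 2, 3 and 4 and knockout replicates 2 and 4. P4ha2, a collagen prolyl hydroxylase subunit, rose by 0.41 (limma adjusted p = 0.0382) and was called only without wild type replicate 3 or knockout replicate 3. Edn1, the vasoconstrictor endothelin, rose by 0.58 (limma adjusted p = 0.0474) and, of the omissions, was called only without knockout replicate 1 or knockout replicate 4. With Ddx3y as a covariate Edn1 was not called (limma adjusted p = 0.0782). With 1 library left out, 12 to 15 targets were raised, the fewest without wild type replicate 4, and 1 was lowered without knockout replicate 1. The vascular growth factor gene Vegfa was not called, at 84.6 ± 7.39 in wild type against 104 ± 29.8 FPKM in knockout hearts (limma adjusted p = 0.322). Hk2 and Tfrc were the only tested targets with a negative log2 change, and neither was called. Hk2 was at 53.7 ± 7.12 in wild type against 35.9 ± 11.9 FPKM in knockout hearts (limma adjusted p = 0.0735). Tfrc was at 112 ± 13.3 against 93.0 ± 15.6 FPKM (limma adjusted p = 0.200).

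**Figure D4:**
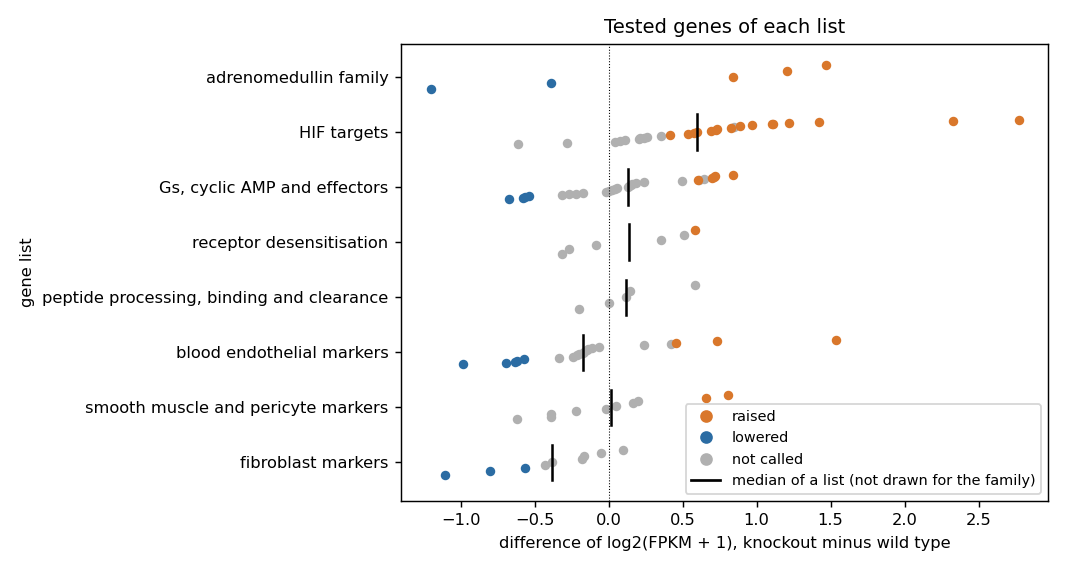
Difference of mean log2(FPKM + 1), knockout minus wild type, for each tested gene of the adrenomedullin family and 7 pathway and marker lists, 1 row per list; orange marks raised, blue lowered and grey genes not called, and black lines are list medians (none for the family). The HIF targets lie mostly to the right, with 16 of 27 raised, blood endothelial markers fall on both sides of 0, and the peptide processing list holds no called gene.

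Markers of other cell types were read for the same libraries. Among blood endothelial markers Vwf (21.6 ± 5.90 to 65.6 ± 21.96 FPKM), Flt1 (14.9 ± 0.456 to 25.6 ± 4.26) and Eng (99.4 ± 13.1 to 137 ± 20.1) rose, while Tie1, Tek, Sox18, Robo4 and Ushbp1 fell (limma adjusted p from 0.00105 to 0.0469). The direction thus differed between genes of the cells in which Calcrl and Ramp2 are best known. The sum of 7 lymphatic endothelial markers, with Reln, which was under the filter, overlapped between the groups (26.04 to 33.2 FPKM in wild type, 25.7 to 31.0 in knockout). Of the 6 tested, 0 were raised and 1 was lowered (16.7% called, near the 12.2% of all tested genes). The number lowered was 0 in 7 of 8 omissions and 1 without knockout replicate 1, and 1 was raised without knockout replicate 4. Of 10 cardiomyocyte markers 0 were raised and 1 lowered, and of 7 atrial and 8 macrophage markers 0 were called. The share called was thus 10% of the cardiomyocyte markers, near the 12.2% of all tested genes. The cardiomyocyte count lowered was 0 without knockout replicate 2, 1 cardiomyocyte marker was raised without knockout replicate 1, and 1 atrial marker was called without knockout replicate 1, 2 or 3. The sum of 5 erythroid markers ran from 1209 to 6170 FPKM in wild type and from 192 to 1568 FPKM in knockout hearts. Of the 3 tested, 0 were called (1 lowered without wild type replicate 1). The part of these cell types in the changes of the 5 genes was not tested.

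The genes most like each member over the 8 libraries were ranked by Pearson r of log2(FPKM + 1), in which the group difference takes a large part. Nearest to Adm were Pxdc1 (0.989), Lrrc40 (0.986), Cd40 (0.978), Plekho1 (0.976) and Pgam1 (0.965). Nearest to Calcrl were Ldha (0.993), Smad7 (0.992), Pgd (0.989), Pgam1 (0.980) and Slc25a5 (0.976). Pgam1, a glycolytic enzyme gene, was on both lists.

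Nearest to Ramp3 were Tfpi2 (0.994), Inhbb (0.984), Flt1 (0.978), Osgin1 (0.972) and Chst11 (0.971). Nearest to Ramp2 were Lrp3 (0.968), Sult1a1 (0.963), Dok4 (0.962), Cmbl (0.957) and Ccdc91 (0.956). Nearest to Ramp1 were 0610011F06Rik (0.986), Zfp14 (0.984), Akirin2 (0.981), Gas1 (0.979) and Podxl2 (0.974). These are the highest correlations for each member among the 11390 tested genes over few libraries that share a normalisation, and they are descriptions only.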

How the data were processed

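Per the labels, an RNeasy kit gave the RNA for 8 whole-heart samples and an Illumina TruSeq kit the libraries. The authors deposited 1 table of quantile-normalised FPKM values; TopHat2, Cufflinks and the build mm10 are named in the submitters' processing notes. That the values are FPKM was inferred from these tools and the table's range. Strandedness, annotation and read depth were not given in the sources used here. Counting error is therefore unknown. Quantile normalisation gives the columns nearly 1 distribution (at most 3.87% apart over the tested ranks), and it can hide a change shared by most genes. 4644 genes were at 0 in all libraries. Groups and replicate numbers came from the labels.

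Differences were tested with limma 3.58.1 in R 4.3.3 (trend and robust options) on log2(FPKM + 1), with a mean of at least 1 FPKM. A fold on that scale is understated for low genes. On simulated data with 11390 genes for this comparison, calls recovered 41.8% of 67 genes given a 1.5-fold change, 79.1% of 67 given 2-fold and 98.5% of 66 given 4-fold. Of 157 calls, 11 were unchanged genes. Only these few genes were changed there, with noise drawn independently for each gene, whereas 12.2% were called in the data. The adjusted p depends on that share, so these rates need not hold for the data. Coordinates came from GENCODE M21 and promoters from RefSeq, which matched 5 of the 6 genes by symbol. Tables and figures used Python 3.11.15, pandas 2.3.3 and matplotlib 3.10.9.

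The members and lists were chosen with earlier results of these data known. Of each pathway list, the genes called and up to 3 with the smallest p were named, and for each called member the 5 most alike genes. Vps25, Gnas, Vegfa, Hk2, Tfrc, Mme, Cdh5, Pecam1, the called blood endothelial markers and the calcitonin family genes were named outside this rule, after their values were seen. The atrial genes Nppa, Sln, Stard10 and Bmp10 were named in the same way. 1 gene counted in a list is not reported here by name. Alternatives covered the pseudocount, the filter, scaling, limma's options, a replicate block, a minimum fold, Ddx3y as covariate and libraries left out.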

Additional observations from a re-analysis of the deposited data

How the results depend on the processing

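Adm, Calcrl and Ramp1 kept their direction and their call in all 20 alternatives tried, at log2 changes of 1.13 to 1.64, 0.69 to 0.93 and -1.42 to -0.72. Ramp2 kept its direction but was not called when a 1.5-fold change was also required (-0.39) and, with 1 library left out (-0.44 to -0.33), without wild type replicate 2 or knockout replicate 3. Ramp3 lost its call without both replicates 4 (1.10). The difference of Adm2 was 0.88 with a pseudocount of 0.1 FPKM and 0.031 with one of 5 FPKM, since its values are small beside the pseudocount. The number of genes called was 577 with that requirement and 575 to 1820 with 1 library left out. Same-numbered wild type and knockout libraries did not deviate together (r = -0.226, 0.00930, 0.102 and -0.0966), and only the replicates 3 correlated best with each other. No pairing by number was thus visible. A pairing by litter or handling that leaves no mark on these correlations cannot be seen this way. With a replicate block 613 genes were called, and Ramp2 was at -0.39 (limma adjusted p = 0.0524). The cause of the other differences was not tested. Depth cannot be read from these values, so counting error on Adm2 and the low calcitonin family genes is unknown.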

Other observations

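Over deviations from the group means, which leave out the group difference, the genes most like each member over the 8 libraries were largely others. For Adm they were 2700089E24Rik (r = 0.972), G0s2 (0.963), Sip1 (0.954), 2410004B18Rik (0.949) and Pxdc1 (0.949). For Calcrl they were Ankrd27 (0.980), Ptges3l (0.968), Pgd (0.965), Ap3d1 (0.962) and Rhbdd1 (0.961). For Ramp1 they were Map4k5 (0.964), Matr3 (0.960), Sash1 (0.953), Ist1 (0.950) and Nup107 (0.947). For Ramp2 they were Grtp1 (0.983), H2afj (0.980), Dnajc14 (0.970), Gstk1 (0.960) and Abhd14b (0.955). For Ramp3 they were Tfpi2 (0.985), Ubr4 (0.984), Chst11 (0.975), Ddit3 (0.967) and Sik1 (0.965). Pxdc1 for Adm, Pgd for Calcrl, and Tfpi2 and Chst11 for Ramp3 were on both rankings.

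Hif1a, which encodes the alpha subunit of HIF-1 and was picked after its values were seen, gave 23.8, 21.2, 26.3 and 22.9 FPKM in the wild type hearts, replicates 1 to 4, against 42.6, 42.04, 38.2 and 34.6 FPKM in the knockout hearts. It rose by 0.72 ± 0.09 on the log2 scale (limma adjusted p = 0.00220), with no overlap between the groups. Epas1, which encodes the alpha subunit of HIF-2, overlapped, at 59.4 ± 3.47 and 56.0 ± 6.06 FPKM (limma adjusted p = 0.542).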
